A study of Mus musculus with 12 samples.

Results

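The collagen genes were taken as every gene whose symbol is Col, a type number, the letter a and a chain number, which gave 44 of the 24787 genes in the deposited tables of mouse liver. Collagens are extracellular proteins built of 3 chains wound into a triple helix, and each type is made of 1 or more kinds of chain. Fibrillar collagens form the tensile fibres of scar and capsule, basement membrane and multiplexin collagens line vessels and sinusoids, and FACIT collagens sit on the surface of fibrils. In liver, stellate cells and portal fibroblasts are the known main sources of fibrillar collagen, and their output rises in fibrosis.

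Livers of C57Bl/6 mice were compared in 3 groups of 4 libraries each, made from total RNA of flash-frozen tissue. The ND group ate a normal diet, and the other mice ate a high-fat diet for 2 months before dosing. The high-fat mice were then split at random into a group injected daily into the peritoneum with vehicle (HFD) and a group injected with 0.5 mg/kg of MEC1, a compound given by its code name (HFD+MEC1). Every dosed group therefore carried the high-fat diet, and the labels do not give the injections of the ND group, the length of dosing, sex, age or batch. The labels do not say that each library came from its own mouse, so p-values measure only the spread between these libraries, which may be technical.

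Library totals ran from 39916405 to 51340317 counts, and the collagens together held 0.0765 to 0.110% of them. Levels are given within a gene as CPM, counts scaled to a common library total after adjustment by the TMM method. Between genes they are given as the deposited RPKM, which divides by gene length and by library size. A gene was tested when it passed edgeR's filter on low counts, and it was called changed at a Benjamini-Hochberg adjusted p under 0.05 over all 14172 genes tested, with no minimum fold. Of the 44 collagens, 31 were tested and 13 were not. Because they come from whole liver, fewer cells of a type and less RNA per cell cannot be told apart in any value below.

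Col18a1, the multiplexin of basement membranes from which endostatin is cut, was the most abundant collagen transcript per length in all groups, at 87.7 ± 12.3 RPKM (SD, n = 12). It supplied 65.8 to 81.4% of all collagen RPKM in a library. The next genes in order were Col14a1, a FACIT collagen, at 5.68 ± 1.78 RPKM, and Col3a1, the chain of fibrillar type III, at 4.60 ± 1.59 RPKM. Col4a1 and Col4a2, the partner chains of the common basement membrane collagen, followed at 4.17 ± 0.885 and 2.78 ± 0.553 RPKM, with Col5a3, a minor chain of fibrillar type V, between them at 3.485 ± 0.776 RPKM. From Col14a1 to Col5a3, each gene differed from its neighbour in this order by less than the SD of either. The type I chains were lower, with Col1a2 at 1.78 ± 0.547 RPKM and Col1a1 at 1.04 ± 0.428 RPKM.

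By class, the 2 multiplexins held 74.2% of the collagen RPKM, the 11 fibrillar genes 11.4%, the 6 basement membrane genes 6% and the 9 FACIT genes 5.22%. The 6 type VI genes, whose chains form beaded microfibrils, held 2.13%, and the 4 transmembrane collagens 0.878%. The 3 network genes of types VIII and X held 0.158%. Among tested genes the lowest was Col4a6, at 0.0214 RPKM. The summed collagen RPKM was 119 ± 22.1 in ND, 119 ± 14.7 in HFD and 122 ± 5.06 in HFD+MEC1 libraries (SD, n = 4 each). With Col18a1 left out it was 31.7 ± 4.97, 34.6 ± 7.15 and 30.6 ± 6.11 RPKM, so the groups overlapped in both sums.

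**Figure D1:**
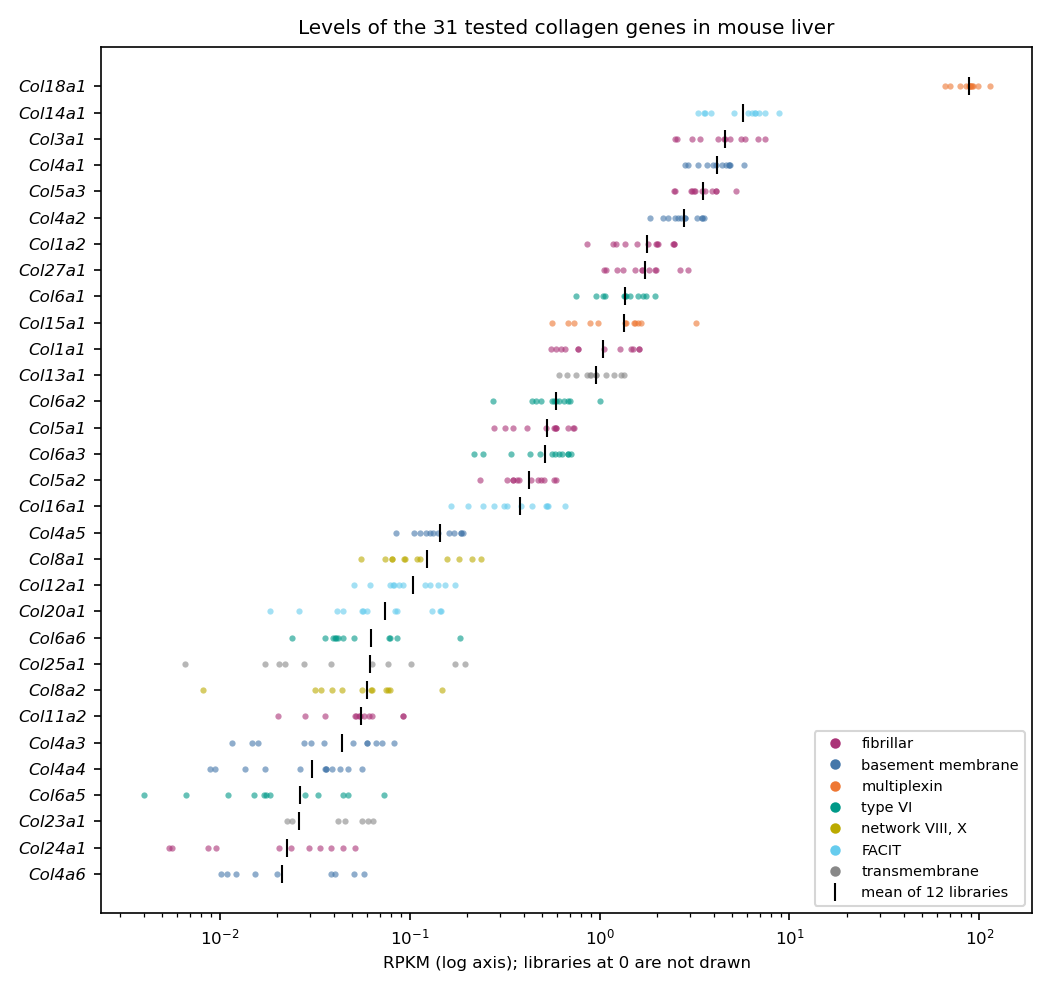
Level of each of the 31 tested collagen genes as deposited RPKM on a log axis, with 1 point per library coloured by collagen class and a bar at the mean of the 12 libraries; libraries at 0 are not drawn. Col18a1 stands alone at the top with a mean of 87.7 RPKM, above Col14a1 at 5.68 RPKM.

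The 13 untested collagens were at or near the counting floor, where 3 counts amount to 0.0590 to 0.0770 CPM. Col2a1, Col6a4, Col9a1, Col19a1 and Col26a1 had no count in any of the 12 libraries. Type II and type IX chains, to which Col2a1 and Col9a1 belong, are known as cartilage collagens. Col7a1, Col9a2, Col9a3, Col10a1, Col11a1, Col17a1, Col22a1 and Col28a1 had between 2 counts in all (Col11a1) and 39 counts in all (Col7a1, the anchoring fibril collagen). The highest count of any of these 8 genes in a library was 10, for Col17a1.

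The upstream sequences of 3 genes are shown because the results below turn on these genes: Col25a1 and Col27a1 were the collagens called changed, and Col3a1 was the fibrillar collagen whose call between the high-fat groups turned on 1 library. They are the 250 bases before the RefSeq start, from RefSeq on GRCm38.p6, all on the plus strand. The Col3a1 window is chr1:45311288-45311537, the Col25a1 window chr3:130180595-130180844 and the Col27a1 window chr4:63215162-63215411. The last 2 windows lie inside those genes as GENCODE M21 draws them, upstream of a later start, and none of the 3 covers an annotated exon. Capitals mark the searched motifs, which are the Sp1 box GGGCGG, the CCAAT box CCAAT and the TATA box TATAAA on either strand.
Col3a1: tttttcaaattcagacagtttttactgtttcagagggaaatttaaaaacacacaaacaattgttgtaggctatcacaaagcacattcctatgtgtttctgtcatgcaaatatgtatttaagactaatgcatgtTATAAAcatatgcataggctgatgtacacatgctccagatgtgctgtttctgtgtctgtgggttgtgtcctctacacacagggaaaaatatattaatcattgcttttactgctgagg
Col25a1: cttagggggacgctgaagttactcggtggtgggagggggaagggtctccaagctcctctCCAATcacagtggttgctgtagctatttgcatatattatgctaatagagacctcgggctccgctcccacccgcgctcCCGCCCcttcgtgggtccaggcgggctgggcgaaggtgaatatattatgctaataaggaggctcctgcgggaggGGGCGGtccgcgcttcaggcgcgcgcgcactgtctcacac
Col27a1: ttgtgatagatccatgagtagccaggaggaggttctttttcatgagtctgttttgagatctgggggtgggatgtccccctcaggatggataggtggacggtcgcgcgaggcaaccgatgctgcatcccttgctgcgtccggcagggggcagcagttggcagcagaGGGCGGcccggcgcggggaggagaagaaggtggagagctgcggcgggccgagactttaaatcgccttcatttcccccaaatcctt

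The Col3a1 window held 1 TATAAA and no GGGCGG, the Col25a1 window held 2 GGGCGG and 1 CCAAT, and the Col27a1 window held 1 GGGCGG. Windows were found for 35 of the 44 collagens, 38 windows in all. GGGCGG was in 57.9% of the collagen windows and in 32.7% of all 32851 windows of that length. CCAAT was in 34.2 and 33.8%, and TATAAA in 13.2 and 12.4%, of the collagen and of all windows. The AP-1 letters TGANTCA were in 2.63 and 6.75%, and the palindromic Smad letters GTCTAGAC in 0 and 0.167%. These are matches of letters only.

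The first comparison, HFD against ND, sets the high-fat diet with vehicle against the normal diet. Since the injections of the ND group are not given, diet and injection cannot be told apart in it. Among the collagens only Col25a1 was called, and it was lower in HFD. Col25a1 (chr3:130131501-130599877, plus strand, GENCODE M21) encodes a transmembrane collagen whose shed part is known from amyloid plaques, and it is best known in neurons and muscle. Col25a1 was at 1.02, 2.03, 0.725 and 1.70 CPM in ND replicates 1 to 4 and at 0.161, 0, 0.0594 and 0.265 CPM in HFD replicates 1 to 4. All HFD libraries lay below all ND libraries. Its log2 fold change was -3.48 ± 0.69 (SE, 95% interval -4.94 to -2.02), with an edgeR adjusted p of 0.00708. The counts behind it were low, at 45, 86, 30 and 82 in ND and 7, 0, 3 and 12 in HFD libraries, and the 0 of HFD replicate 2 allows up to 0.0647 CPM. Leaving out any 1 of these 8 libraries left the log2 fold change between -4.19 and -3.07 with the call in place each time. Col25a1 passed the low-count filter through its ND counts, since it was not tested in a fit of only the high-fat groups. A gene kept in this way could be called here only as a fall, so the filter favoured the direction of this call.

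One collagen called of 31 tested stands beside 6.30% of all tested genes called in the same comparison. At an unadjusted p under 0.05 there were 3 collagens, beside 20.7% of all genes. Groups did not overlap for 3 collagens, beside 14.3% of all genes: Col25a1 and Col15a1 were lower and Col5a3 was higher in HFD. The log2 fold changes were positive for 15 and negative for 16 of the 31 collagens, with a median of -0.09 beside 0.00 over all tested genes.

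Col5a3 (chr9:20770050-20815067) missed the threshold narrowly. Its level was 25.2, 26.1, 24.8 and 19.97 CPM in ND and 31.4, 28.4, 37.5 and 32.1 CPM in HFD libraries. Every HFD library was above every ND library, and the log2 fold change of 0.43 ± 0.12 had an adjusted p of 0.0508. It was called without HFD replicate 2 (adjusted p 0.0498), with DESeq2 (0.0288), with library totals for scaling (0.022), with no filter (0.0468), in a fit of only these groups (0.03) and with a replicate block (0.0487).

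Col15a1 (chr4:47208161-47313167), the other multiplexin, was at 11.8, 11.8, 10.3 and 10.6 CPM in ND and 4.87, 6.73, 4.22 and 9.26 CPM in HFD libraries. The HFD libraries were all lower, HFD replicate 4 least so. It gave a log2 fold change of -0.83 ± 0.48, adjusted p 0.371. In a fit of only the ND and HFD libraries Col15a1 was called, with an adjusted p of 0.0263. The joint fit shares its spread with the HFD+MEC1 libraries, where Col15a1 varied most.

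The fibrillar collagens best known from scar did not pass the test in HFD. Col3a1 (chr1:45311538-45349706) was at 36.5, 26.1, 32.3 and 40.3 CPM in ND and 51.5, 41.6, 44.1 and 18.3 CPM in HFD libraries. HFD replicates 1 to 3 were above all ND libraries, whereas HFD replicate 4 was below them all. For Col3a1 the log2 fold change was 0.20 ± 0.29 (95% interval -0.43 to 0.84), with an adjusted p of 0.751.

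Col1a1 and Col1a2, the chains that combine into type I collagen, showed the same low library. Col1a1 (chr11:94936224-94953042) was at 6.19, 4.85, 11.4 and 11.3 CPM in ND and 11.9, 9.82, 11.2 and 4.24 CPM in HFD libraries. Col1a2 (chr6:4504814-4541544) was at 12.6, 8.88, 13.5 and 16.9 CPM in ND and 16.2, 13.5, 14.8 and 7.88 CPM in HFD libraries. For both chains the lowest of these 8 values was in HFD replicate 4. The log2 fold changes were 0.14 ± 0.33 (95% interval -0.58 to 0.86) for Col1a1 and 0.01 ± 0.26 for Col1a2.

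Col27a1 (chr4:63214004-63334991), a fibrillar collagen best known from cartilage, was at 27.4, 17.8, 28.5 and 19.7 CPM in ND and 16, 19.2, 13.7 and 13.1 CPM in HFD libraries. The groups met where HFD replicate 2 stood above ND replicate 2. The log2 fold change was -0.59 ± 0.18 (95% interval -0.97 to -0.20), with an adjusted p of 0.0673. It was called without ND replicate 2 (adjusted p 0.0349) and without HFD replicate 2 (adjusted p 0.0475), with DESeq2 (0.0271) and in a fit of only these groups (0.0474).

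No basement membrane collagen passed the test, and the groups overlapped for each. Col4a1 (chr8:11198423-11312826, minus strand) was at 26.1, 26.0, 33.6 and 37.9 CPM in ND and 40.2, 31.3, 35.9 and 35.1 CPM in HFD libraries. Col4a2 (chr8:11312805-11449287, plus strand) was at 15.96, 20.6, 26.7 and 22.6 CPM in ND and 28, 20.7, 21.2 and 21.4 CPM in HFD libraries. Both chains overlapped between the diets, with log2 fold changes of 0.20 ± 0.16 for Col4a1 and 0.09 ± 0.17 for Col4a2. Col18a1 (chr10:77052178-77166548) was at 546, 635, 837 and 666 CPM in ND and 647, 489.6, 625 and 660.4 CPM in HFD libraries. The highest library was ND replicate 3 and the lowest HFD replicate 2, and the log2 fold change was -0.15 ± 0.14 (95% interval -0.44 to 0.14).

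Col14a1 (chr15:55307750-55520803) was at 44.2, 34.8, 49.98 and 55.2 CPM in ND and 60.1, 52.7, 51.8 and 27.2 CPM in HFD libraries. HFD replicate 4 was again the lowest of the 8, and the log2 fold change was 0.06 ± 0.31. For type VI collagen, Col6a1 was at 7.43, 5.94, 8.12 and 10.2 CPM in ND and 8.70, 6.95, 6.74 and 3.84 CPM in HFD libraries. Col6a2 was at 3.54, 4.80, 4.67 and 7.84 CPM in ND and 4.20, 4.98, 4.75 and 2.12 CPM in HFD libraries. Col6a1 and Col6a2 were both lowest in HFD replicate 4. Col6a3, the long chain of type VI, was at 9.96, 3.298, 9.72 and 8.65 CPM in ND and 9.23, 8.82, 6.10 and 3.35 CPM in HFD libraries. Its lowest library was ND replicate 2. The 3 log2 fold changes were -0.27, -0.38 and -0.20, and none passed the test.

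HFD replicate 4 was the lowest of its group in 18 of the 31 tested collagens, and HFD replicate 1 was the highest in 15. The other groups were nearly as uneven. HFD+MEC1 replicate 4 was the lowest of its group in 16 and HFD+MEC1 replicate 1 the highest in 14. In ND, replicate 2 was the lowest in 15 and replicate 4 the highest in 12. Without HFD replicate 4 the median log2 fold change of the collagens from ND to HFD was 0.12 rather than -0.09, and Col25a1 was still the only one called.

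**Figure D2:**
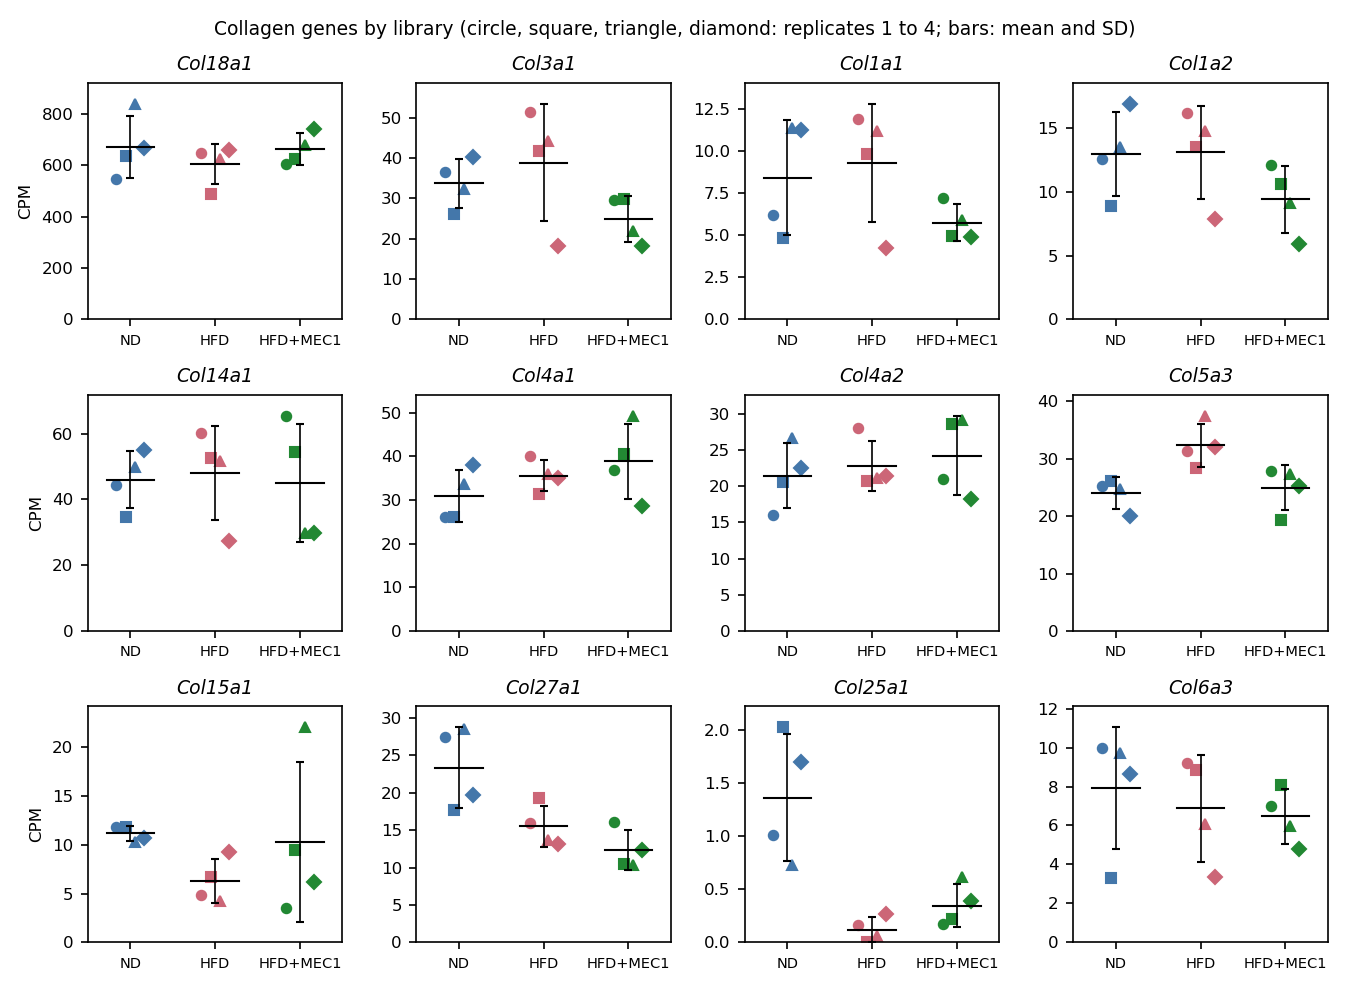
CPM of 12 collagen genes in every library, with the 3 groups on the horizontal axis, marker shape for replicates 1 to 4 and bars for the mean and SD of 4 libraries. Col25a1 does not overlap between ND and HFD, Col27a1 does not overlap between ND and HFD+MEC1, and HFD replicate 4 (diamond) is low for Col3a1, Col1a1, Col1a2 and Col14a1.

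The second comparison, HFD+MEC1 against HFD, asks what the compound adds on the same diet. No collagen passed the test, whether by edgeR, DESeq2 or limma-voom. Over all genes edgeR called 0.0282%, DESeq2 2.86% of the 13615 genes to which it gave an adjusted p, and limma-voom 0.0141%. The 4 genes behind the edgeR share became 460 without HFD+MEC1 replicate 1 (7 collagens at an unadjusted p under 0.05, none called), 72 without HFD replicate 4, 7 without HFD replicate 2, and 0 without any 1 of the other 5 libraries. At an unadjusted p under 0.05 edgeR gave 3 collagens of 31, beside 14.8% of all genes, DESeq2 gave 6 and limma-voom 2. The share of all genes at that cutoff was not computed for DESeq2, limma-voom or the fits with 1 library left out. The 3 in edgeR were Col5a3, Col12a1 and Col25a1. Groups did not overlap for 1 collagen, Col5a3, beside 7.11% of all genes.

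Col5a3 was at 27.9, 19.3, 27.4 and 25.3 CPM in HFD+MEC1 libraries, all below the HFD range of 28.4 to 37.5 CPM. Its mean of 25 ± 3.93 CPM stood near the ND mean of 24.0 ± 2.75 CPM. The log2 fold change against HFD was -0.37 ± 0.12 (95% interval -0.64 to -0.11), with an unadjusted p of 0.00838 and an adjusted p of 0.185. The HFD libraries enter both this difference and that from ND, so the 2 values are not independent.

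Col3a1 was at 29.6, 29.9, 22.0 and 18.2 CPM in HFD+MEC1 libraries. These lay below HFD replicates 1 to 3, and the lowest of them was level with HFD replicate 4. The log2 fold change was -0.64 ± 0.29 (95% interval -1.28 to 0.00), with an adjusted p of 0.337. Without HFD replicate 4 it was -0.87 with an adjusted p of 0.0485, so this library decided the call.

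Type I chains gave values of the same sign. Col1a1 was at 7.25, 4.99, 5.90 and 4.91 CPM and Col1a2 at 12.1, 10.6, 9.16 and 5.92 CPM in HFD+MEC1 libraries. Each Col1a1 value was below HFD replicates 1 to 3 and above HFD replicate 4. The log2 fold changes were -0.69 ± 0.34 (95% interval -1.42 to 0.04, adjusted p 0.363) for Col1a1 and -0.47 ± 0.26 (adjusted p 0.421) for Col1a2. Of the 9 tested fibrillar genes, 7 had a negative and 2 a positive log2 fold change, with a median of -0.37, and none was called.

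Col15a1 was at 3.48, 9.43, 22.0 and 6.22 CPM in HFD+MEC1 libraries. HFD+MEC1 replicate 3 was the highest and replicate 1 the lowest of all 12 libraries. The log2 fold change of 0.71 ± 0.48 had an adjusted p of 0.541, and without HFD+MEC1 replicate 3 it was 0.03.

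Col25a1 was at 0.170, 0.216, 0.616 and 0.390 CPM in HFD+MEC1 libraries, from 8, 11, 24 and 17 counts. These values overlapped the HFD range, and the log2 fold change of 1.5 ± 0.70 had an adjusted p of 0.335. Col12a1, a FACIT collagen of tendon and fascia, was at 1.29, 1.51, 0.918 and 1.95 CPM in ND, 2.52, 2.11, 2.10 and 1.32 CPM in HFD libraries, and 1.06, 1.79, 1.23 and 0.780 CPM with MEC1. The groups overlapped, and the log2 fold change of Col12a1 from HFD was -0.73 ± 0.31, with an adjusted p of 0.292.

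The other collagens described by library also overlapped between the high-fat groups. In HFD+MEC1 libraries Col18a1 was at 606, 626, 681 and 743 CPM and Col14a1 at 65.4, 54.4, 29.8 and 29.9 CPM. Col4a1 was at 37.0, 40.6, 49.3 and 28.6 CPM and Col4a2 at 20.96, 28.5, 29.2 and 18.3 CPM. Col14a1 split into replicates 1 and 2, high, and replicates 3 and 4, low, whereas Col4a1 was highest in replicate 3. Col6a1 was at 7.82, 6.86, 5.29 and 5.0 CPM, Col6a2 at 4.88, 3.77, 4.54 and 3.65 CPM, and Col6a3 at 6.99, 8.10, 5.96 and 4.82 CPM. Over the 31 collagens the log2 fold change was positive for 14 and negative for 17, with a median of -0.07 beside 0.01 over all genes. That median ran from -0.19 without HFD+MEC1 replicate 1 to 0.09 without HFD replicate 1, so its sign depended on single libraries.

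The third comparison, HFD+MEC1 against ND, combines diet and compound. Col27a1 fell, and no other collagen was called. Col27a1 was at 16.1, 10.5, 10.3 and 12.4 CPM in HFD+MEC1 libraries, all below the lowest ND library at 17.8 CPM. The group means were 23.3 ± 5.39 CPM in ND, 15.5 ± 2.78 CPM in HFD libraries and 12.3 ± 2.66 CPM in those given MEC1 (SD, n = 4 each). Against ND the log2 fold change was -0.92 ± 0.18 (95% interval -1.31 to -0.53), a level 0.528 times that of ND, with an edgeR adjusted p of 0.00974. Col27a1 was called in this comparison when any 1 of the 8 libraries was left out (-1.07 to -0.81) and in all 11 other settings tried (-0.92 to -0.52). Against HFD its log2 fold change was -0.33 ± 0.18 with an adjusted p of 0.416, so no difference of Col27a1 was shown between the high-fat groups.

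One of 31 collagens called stands beside 4.54% of all genes. At an unadjusted p under 0.05 there were 4 collagens, beside 19.1% of all genes: Col25a1, Col27a1, Col6a6 and Col20a1. Col25a1 and Col27a1 did not overlap between these groups, beside 11% of all genes, and both were lower in HFD+MEC1. Since Col25a1 passed the low-count filter through its ND counts, the filter favoured a fall of this gene here too. For Col25a1 the log2 fold change came to -1.98 ± 0.62, adjusted p 0.0819. Col6a6, a further type VI chain, was at 0.377 to 0.519 CPM in ND and 0.436 to 1.77 CPM in HFD+MEC1 libraries, with a log2 fold change of 1.09 ± 0.49 and an adjusted p of 0.241. For Col20a1, a FACIT collagen, the range was 0.217 to 0.848 CPM in ND and 0.154 to 0.459 CPM in HFD+MEC1 libraries, with a log2 fold change of -1.18 ± 0.55 and an adjusted p of 0.258.

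Among the abundant collagens, Col4a1 was 30.9 ± 5.87 CPM in ND and 38.9 ± 8.58 CPM in HFD+MEC1 libraries, with a log2 fold change of 0.33 ± 0.16 and an adjusted p of 0.268. Col3a1 was 33.8 ± 6.09 and 24.9 ± 5.78 CPM in those groups, with a log2 fold change of -0.44 and an adjusted p of 0.464. Over the 31 collagens 23 log2 fold changes were negative, 74.2% beside 49.4% of all genes, with a median of -0.29 beside 0.00. That median was -0.07 without ND replicate 4 and -0.12 without HFD+MEC1 replicate 4, the highest ND and the lowest HFD+MEC1 library by the median collagen level.

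**Figure D3:**
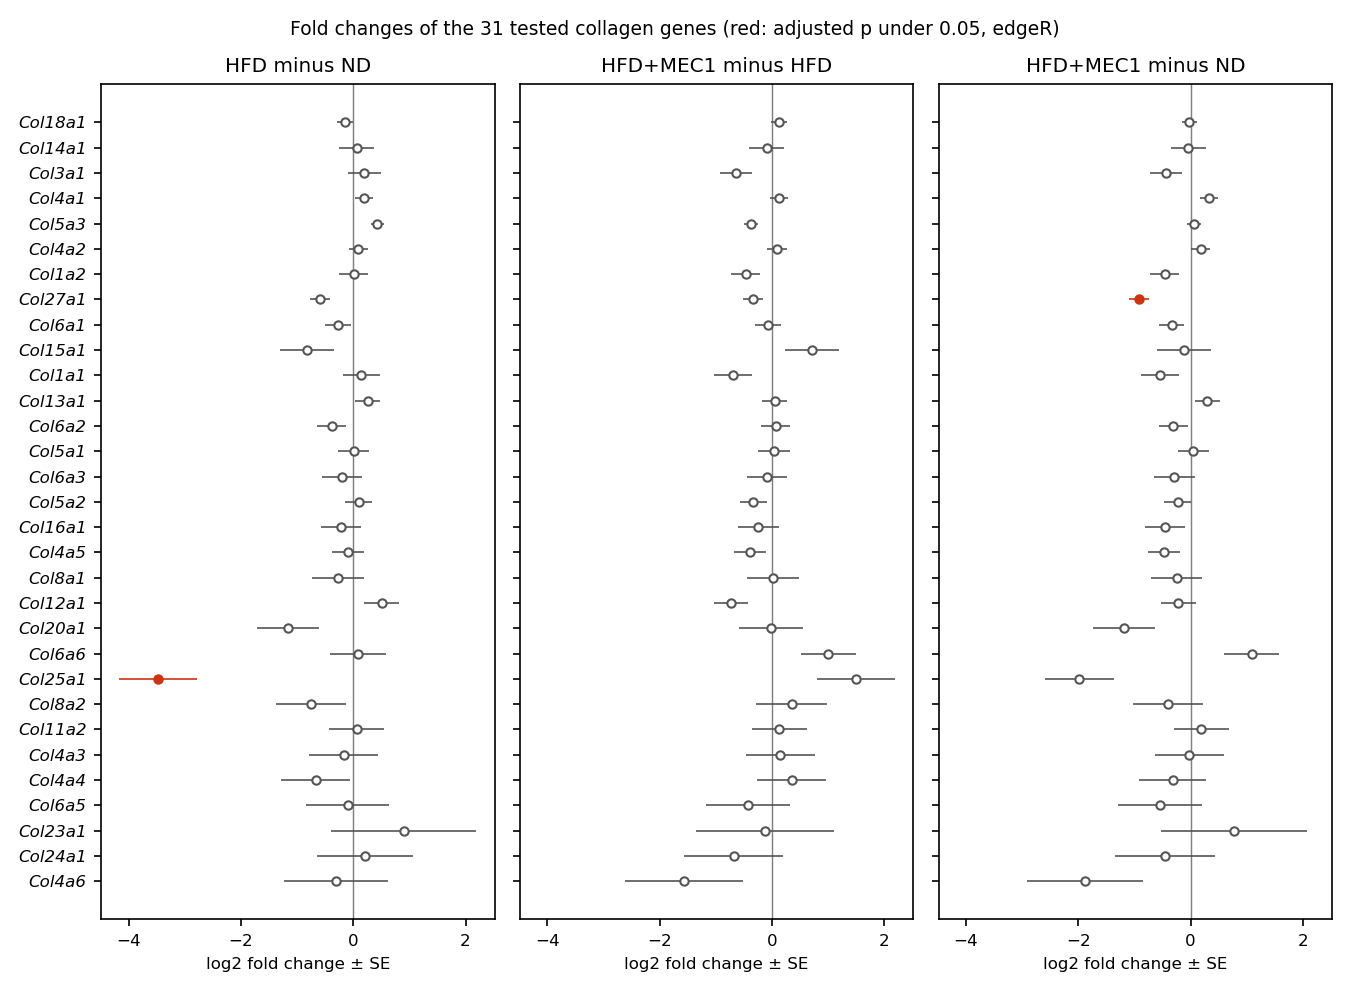
Log2 fold change with SE of each of the 31 tested collagen genes in the 3 comparisons, ordered by mean RPKM from the top, with filled red points for an edgeR adjusted p under 0.05. The red points are Col25a1 in HFD minus ND (-3.48) and Col27a1 in HFD+MEC1 minus ND (-0.92), and the middle panel has none.

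Chains that assemble together were compared across the 12 libraries. The RPKM ratio of Col1a1 to Col1a2 was 0.416 to 0.746 over all libraries, at 0.563 ± 0.139 in ND, 0.608 ± 0.0893 in HFD and 0.561 ± 0.130 in HFD+MEC1. Col1a1 itself fell into a higher and a lower set of libraries, with none between 7.25 and 9.82 CPM, so no correlation was computed for it. The ratio of Col4a1 to Col4a2 was 1.22 to 1.72, and these genes start head to head with 22 bases of overlap on opposite strands of chromosome 8. The overlap touches 0.295% of the exonic bases of Col4a1. For Col4a2, 0.982% of exonic bases overlap exons of Col4a1 or of Gm15419, both on the opposite strand. The use of strand in counting is not stated.

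Col4a1 and Col4a2 varied together, with Pearson r 0.82 (permutation p 0.0012, adjusted 0.0028) and Spearman rho 0.88 (p 0.00035, adjusted 0.0012) over log2 CPM. Without the 2 libraries farthest from the median of Col4a1 r was 0.84, and with the group means removed it was 0.82. In every pair the farthest libraries were taken by the first-named gene alone. Col6a1 and Col6a3 gave r 0.80 (permutation p 0.0018, adjusted 0.0031) and rho 0.79 (p 0.0032, adjusted 0.0075), with r 0.73 without the 2 farthest libraries. Col6a1 and Col6a2 gave r 0.76 (permutation p 0.0056, adjusted 0.0078) and rho 0.49 (p 0.11, adjusted 0.15). That r depended on the 2 libraries farthest from the median of Col6a1, since it was 0.15 without them. All tests were two-sided with 100000 resamples, and p-values were adjusted over 7 relations.

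The other 4 relations were chosen after the values were seen, so their p-values do not measure chance for pairs picked from the same data. The adjustment covers only the relations tested, not all the collagen pairs that could have been picked. For these 4, r and rho describe the libraries, and no conclusion is drawn from their p-values. Col1a2 and Col3a1, both chains of fibrils, gave r 0.94 and rho 0.94 (permutation p 1e-05 each, the smallest these permutations can give, adjusted 7e-05), with r 0.90 without the 2 farthest libraries. Col3a1 and Col14a1 gave r 0.83 (permutation p 0.0012, adjusted 0.0028) and rho 0.66 (p 0.022, adjusted 0.039), with r 0.67 without the 2. Col3a1 and Col4a1 gave r 0.07 (permutation p 0.83, adjusted 0.83) and rho 0.16 (p 0.62, adjusted 0.62), with r -0.13 without the 2. Col3a1 and Col18a1 gave r -0.39 (permutation p 0.21, adjusted 0.25) and rho -0.43 (p 0.16, adjusted 0.19), with r -0.26 without the 2. Removing the group means gave r 0.92 for Col1a2 with Col3a1, 0.90 for Col3a1 with Col14a1, 0.31 for Col3a1 with Col4a1 and -0.34 for Col3a1 with Col18a1. Among fibrillar genes only Col1a2 with Col3a1 was put to this test. The relation of Col5a3 with Col3a1 was not tested. Col5a3 was lowest of ND in replicate 4, where Col3a1 was highest, but both had their highest group mean in HFD, at 32.3 and 38.9 CPM. For Col3a1 with Col4a1 and with Col18a1, too, no conclusion is drawn from the adjusted permutation p-values of r, 0.83 and 0.25.

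**Figure D4:**
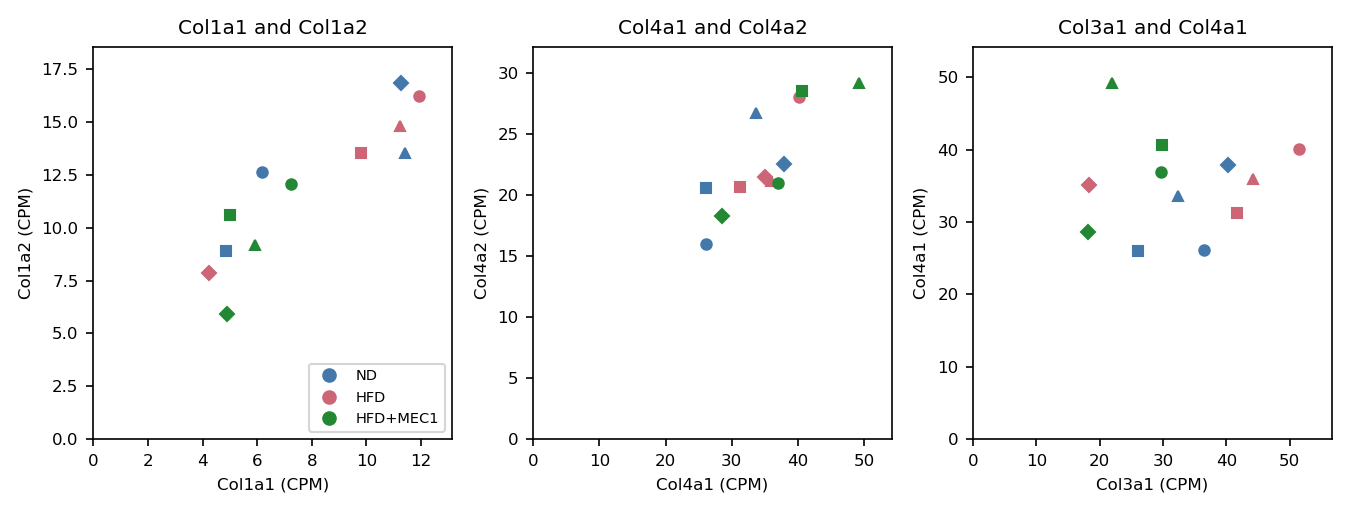
CPM of Col1a1 against Col1a2, Col4a1 against Col4a2 and Col3a1 against Col4a1, with 1 point per library, colour for the group and marker shape for the replicate number. Points rise together in the first 2 panels, whereas in the third, where r was 0.07, they scatter.

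Genes that make, process, break down, bind and accompany collagen were read from lists. Of 17 tested genes of collagen synthesis, which fold and modify the chains in the endoplasmic reticulum, none was called by edgeR in any comparison, and 4, 3 and 2 had an unadjusted p under 0.05 in the 3 comparisons in turn. These are 23.5, 17.6 and 11.8% of the list, beside 20.7, 14.8 and 19.1% of all tested genes. Ppib, the prolyl isomerase cyclophilin B, was at 199 ± 4.21 CPM in ND, 155 ± 16.8 CPM in HFD libraries and 192 ± 30.7 CPM in those given MEC1, with a log2 fold change from ND to HFD of -0.36 ± 0.11 (adjusted p 0.072). Colgalt2, a collagen galactosyltransferase, had a log2 fold change from ND to HFD+MEC1 of -1.83 ± 0.60 (adjusted p 0.095). The medians of this list in the 3 comparisons, in the same order, were -0.03, 0.03 and 0.01.

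Of 10 processing and cross-linking genes none was called in any comparison, with 2, 3 and 1 (20, 30 and 10%) at an unadjusted p under 0.05 and medians of -0.10, 0.05 and -0.05. The log2 fold change of Adamts14, which removes amino-terminal propeptides, was -1.15 ± 0.40 from ND to HFD (adjusted p 0.101), and that of Pcolce, an enhancer of carboxy-terminal cleavage, -0.56 ± 0.20 from ND to HFD+MEC1 (adjusted p 0.127). Among 13 degradation genes none was called, with 3, 0 and 2 (23.1, 0 and 15.4%) at an unadjusted p under 0.05 and medians of -0.14, -0.04 and -0.21. From ND to HFD+MEC1 the log2 fold change was -0.51 ± 0.17 (adjusted p 0.0991) for Timp3, a matrix-bound inhibitor of metalloproteinases, and -0.31 ± 0.13 (adjusted p 0.187) for Mmp15, a membrane-type metalloproteinase. The 7 tested collagen receptors gave no call, 1 unadjusted p under 0.05 (14.3%) in each comparison, and medians of -0.15, 0.09 and 0.05. Adgrg1, which binds type III collagen, had a log2 fold change of 0.78 ± 0.23 from HFD to HFD+MEC1 (adjusted p 0.143), and Ddr1, a receptor tyrosine kinase, -0.75 ± 0.30 from ND to HFD+MEC1 (adjusted p 0.181).

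Of the 31 matrix partners 1 rose and 2 fell in HFD against ND, 9.68% of the list beside 6.30% of all genes. None was called between the high-fat groups by edgeR, with 5 at an unadjusted p under 0.05 (16.1%). In HFD+MEC1 against ND 1 rose and 1 fell, 6.45% beside 4.54% of all genes. The medians were -0.17, -0.07 and -0.19. Lama3 and Lamb3 are chains of the same laminin, laminin-332, and in HFD against ND they moved in opposite directions. Lama3 fell from 9.74 ± 0.93 CPM in ND to 5.02 ± 1.11 CPM in HFD libraries (log2 fold change -0.96 ± 0.16, adjusted p 0.00303). In HFD+MEC1 libraries Lama3 was at 8.55 ± 0.99 CPM, with log2 fold changes of 0.77 ± 0.16 from HFD (adjusted p 0.0788) and -0.19 ± 0.16 from ND (adjusted p 0.584). Lamb3 rose from 1.96 ± 0.21 to 8.80 ± 4.96 CPM (2.16 ± 0.36, adjusted p 0.00396) and was also higher in HFD+MEC1 than in ND libraries (1.52 ± 0.36, adjusted p 0.0307). Nid2, which links laminin to type IV collagen, fell from 13.5 ± 0.969 CPM in ND to 8.82 ± 1.12 CPM in HFD libraries (-0.62 ± 0.16, adjusted p 0.0262) and to 9.15 ± 2.11 CPM in those given MEC1 (-0.56 ± 0.16, adjusted p 0.0492).

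Of 21 genes of profibrotic signalling, 1 fell in HFD against ND (4.76% beside 6.30% of all genes) and 2 fell in HFD+MEC1 against ND (9.52% beside 4.54%). None was called by edgeR between the high-fat groups, where 3 had an unadjusted p under 0.05 (14.3%). The medians were -0.16, -0.07 and -0.08. Vegfa, an endothelial growth factor, fell from 81.1 ± 16.7 CPM in ND to 51.2 ± 10.2 CPM in HFD libraries (-0.66 ± 0.15, adjusted p 0.0166) and to 52.3 ± 5.51 CPM in those given MEC1 (-0.63 ± 0.15, adjusted p 0.0256). Tgfbr2, the type II receptor of TGF-beta, fell from 34.0 ± 4.62 CPM in ND to 23.6 ± 1.48 CPM in HFD+MEC1 libraries (-0.52 ± 0.12, adjusted p 0.0182).

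Markers of other liver cells were detected beside the hepatocyte markers, whose summed level was 96100 to 118000 CPM over all libraries. Which cells, hepatocytes included, supplied each collagen was not tested. All 14 stellate cell markers were tested and summed to 412 to 557 CPM in ND, 446 to 686 CPM in HFD libraries and 472 to 752 CPM in those given MEC1, of which Tmem56 alone made up 185 to 393 CPM. Tmem56 rose in both high-fat groups against ND (0.83 ± 0.13, adjusted p 0.00208, and 0.63 ± 0.13, adjusted p 0.0135), and no other stellate marker was called. Of 11 portal fibroblast markers 9 were tested, and none was called in any comparison, with 1 unadjusted p under 0.05 in each. That is 11.1% each time, beside 20.7, 14.8 and 19.1% of all tested genes in the 3 comparisons in turn. Gli1, Pi16 and Clec3b of this list had 0 counts in at least 1 library. The list summed to 26.8 to 39.0 CPM in ND, 20.8 to 40.0 CPM in HFD libraries and 18.6 to 29.5 CPM in those given MEC1. Most of this was Gas1, at 6.06 to 20.3 CPM, and Dpt, at 2.1 to 9.32 CPM over all libraries.

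HFD replicate 4, at 20.8 CPM, and HFD+MEC1 replicates 3 and 4, at 20.6 and 18.6 CPM, had the lowest portal fibroblast sums, and the same 3 libraries had the lowest Col3a1. Since Gas1 and Dpt dominate these sums, the match says little about the other markers of the list. The stellate sum of HFD replicate 4 was 446 CPM, the lowest of its group, and that of HFD+MEC1 replicate 4 was 472 CPM, also the lowest of its group. The part of these cells in the Col3a1 values was not tested. Of the 8 myofibroblast markers none was called by edgeR. At an unadjusted p under 0.05 there were 3, 3 and 0 in the 3 comparisons in turn. These are 37.5, 37.5 and 0% of the list, beside 20.7, 14.8 and 19.1% of all tested genes. The 8 markers summed to 62.1 to 82.2 CPM in ND, 49.3 to 71.8 CPM in HFD libraries and 39.6 to 76.3 CPM in those given MEC1. Spp1, at 26.7 to 70.2 CPM, dominated that sum, and the markers taken singly ran the other way. Of the 8, 7 had a positive log2 fold change in HFD against ND (median 0.80) and 7 a negative one in HFD+MEC1 against HFD (median -0.75), and in HFD+MEC1 against ND 4 were positive and 4 negative (median -0.04). Over all tested genes 50.6% were negative in HFD against ND and 48.9% in HFD+MEC1 against HFD. The same HFD libraries enter both differences, so the rise and the fall are not independent. Timp1, Actg2, Cnn1 and Lox were low, with means of 0.152, 0.283, 0.317 and 0.639 CPM over all libraries. Tagln, a smooth muscle actin-binding protein, was at 5.66 ± 1.29 CPM in ND, 8.47 ± 2.28 CPM in HFD libraries and 5.67 ± 0.879 CPM in those given MEC1, and Lox, a collagen cross-linking oxidase, at 0.399 ± 0.0925, 1.05 ± 0.386 and 0.47 ± 0.259 CPM. Col1a1 and Col3a1 also had their highest mean in HFD, and the part of myofibroblasts in it was not tested. In this list Timp1 and Actg2 had 0 counts in at least 1 library.

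The 13 sinusoidal endothelial markers summed to 356 to 566 CPM in ND, 473 to 611 CPM in HFD libraries and 571 to 628 CPM in those given MEC1, and Clec4g rose in HFD+MEC1 against ND (0.49 ± 0.12, adjusted p 0.0306). All 13 had a positive log2 fold change in that comparison, with 15.4% at an unadjusted edgeR p under 0.05 beside 19.1% of all genes. The 7 markers of other endothelium summed to 25.6 to 39.6 CPM, and Thbd rose in HFD against ND (0.79 ± 0.20, adjusted p 0.0246). The 9 cholangiocyte markers summed to 103 to 120 CPM in ND, 44.7 to 71.5 CPM in HFD libraries and 51.9 to 90.6 CPM in those given MEC1, most of it Cdh1, which hepatocytes express as well and which fell in HFD against ND (-1.30 ± 0.25, adjusted p 0.013). Epcam of that list fell in HFD+MEC1 against ND (-1.59 ± 0.35, adjusted p 0.0148), and Cftr had 0 counts in at least 1 library. In HFD+MEC1 against ND 5 of the 9 (55.6%) had an unadjusted edgeR p under 0.05, beside 19.1% of all genes. The cholangiocyte sums were lower in every high-fat library than in any ND library, as Col25a1 was, and their part in the Col25a1 value was not tested.

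Among 14 macrophage markers, which summed to 326 to 485 CPM in ND, 395 to 627 CPM in HFD libraries and 460 to 615 CPM in those given MEC1, Gpnmb rose in HFD against ND (2.52 ± 0.68, adjusted p 0.0375). Its level was low, at 0.307 ± 0.115 CPM in ND and 1.77 ± 1.23 CPM in HFD libraries. All 14 had a positive log2 fold change in both high-fat groups against ND. Of them 42.9% in HFD and 50% in HFD+MEC1 had an unadjusted edgeR p under 0.05, beside 20.7 and 19.1% of all genes. Of 10 hepatocyte markers Cps1 fell in both high-fat groups against ND (-1.18 ± 0.22, adjusted p 0.00498, and -1.14 ± 0.22, adjusted p 0.00762). None of the 6 mesothelial markers was called, nor had any an unadjusted p under 0.05 in edgeR, and they summed to 2.43 to 9.43 CPM. Of 5 adipocyte markers only Nnat was tested, and Lep and Plin1 had no count in any library.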

How the data were processed

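Total liver RNA of 12 libraries, in 3 groups of 4, was measured by RNA sequencing. The authors deposited whole-number counts per gene symbol for each library and a table of RPKM values for all, per the file headers. The submitters' processing notes list STAR 2.7.10a and mm10. Which tool counted reads, with what annotation, strand setting or filter, is not given in the sources used here. A further 12 RPKM columns fit no labelled sample and were not used. Of collagen counts from 1 to 20, 83.7% were even (72.6% for all genes), so a fragment may have been counted by both ends and counting error is then larger. Replicates of a group differed by more than counting noise, with a chi-square per gene of 35.3 to 412.

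Each library was grouped and numbered by its title. Counts were filtered with filterByExpr, scaled by TMM and fitted with edgeR 4.0.16 (R 4.3.3) in 1 quasi-likelihood model with robust dispersion over the 3 groups, with no block. The 14172 genes kept held 99.98% of counts. Tests were two-sided, with Benjamini-Hochberg adjustment over all tested genes and a threshold of 0.05. A prior count of 2 entered the log2 levels behind the median collagen level by library and the deviations from group means. It did not enter the tests, the log2 fold changes or the correlations between collagens. The common biological coefficient of variation was 0.2. The fits were tested on simulated data. DESeq2 1.42.0, limma 3.58.1 with voom, other scalings and filters, log2(RPKM + 1), single left-out libraries and a replicate block were alternatives. Correlations and their permutation p-values were computed with NumPy 2.4.6, and SciPy 1.17.1 gave the ranks and the adjustment over relations.

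Values are given by library for each collagen called in any comparison, the 10 tested collagens of highest mean RPKM, and the partner chains of types I, IV and VI. Of each other list the called genes are named, up to 5, and otherwise the 2 of lowest p over the comparisons. Col12a1, Col6a6 and Col20a1, and the RPKM of other genes in the order of levels, were named after their values were seen. The marker lists are stellate, myofibroblast, portal fibroblast, sinusoidal and other endothelial, cholangiocyte, macrophage, hepatocyte, mesothelial and adipocyte. Lox, Timp1 and Pdgfrb are each in a pathway list and a marker list. Members and lists were chosen with earlier results of these data known. Gene coordinates are from GENCODE M21 and 1-based. Floors of counts cover counting error only, and intervals of fold changes come from the edgeR fit.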

Additional observations from a re-analysis of the deposited data

Results flagged for a closer look

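Col4a2 in HFD replicate 1 was at 28 CPM, whereas the other 3 HFD libraries lay between 20.7 and 21.4 CPM. The gap to the nearest library was 0.895 of the range of the group, above Dixon's critical value for 4 libraries. Of the 42 sets of 4 values examined in this way, 14 collagens in 3 groups, this was the only one past that value, and chance alone passes about 1 in 20. The partner chain Col4a1 was also highest of its group in that library, at 40.2 CPM against 31.3 to 35.9 CPM.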

How the results depend on the processing

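The count of collagens called in HFD against ND was 1 by edgeR and moved with the setting. It was 3 with DESeq2 (Col25a1, Col27a1 and Col5a3), 2 with library totals for scaling and 2 with no filter (Col25a1 and Col5a3 each), 0 with a stricter filter, 4 in a fit of only those groups (Col15a1 as well as those 3), 0 with log2(RPKM + 1) behind an RPKM filter, and 1 to 3 with 1 library left out. Col25a1 was not tested under the 2 filters that gave 0, and it was called in all 9 other settings where it was tested. In HFD+MEC1 against HFD the count was 0, and 0 to 1 with 1 library left out, the exception being Col3a1 without HFD replicate 4. In HFD+MEC1 against ND it was 1, and 2 with DESeq2, 2 in a fit of only those groups and 2 with log2(RPKM + 0.1), each adding Col25a1, and 1 to 1 with 1 library left out. The low-count filter favoured a fall of Col25a1 in both comparisons with ND, as said above. Of the values of single collagens under these alternatives 737 kept their direction and side of the threshold, and 15 passed it only under the alternative. The other 39 changed sign, all of them log2 fold changes of at most 0.20 in size by edgeR with all libraries, and called in neither setting. With 1 library left out they ran, from HFD against ND, from -0.03 to 0.20 for Col4a2, -0.07 to 0.25 for Col14a1, -0.14 to 0.19 for Col1a2, -0.06 to 0.38 for Col1a1 and -0.46 to 0.02 for Col6a3. In HFD+MEC1 against HFD they ran from -0.33 to 0.06 for Col14a1, -0.01 to 0.20 for Col4a2, -0.25 to 0.10 for Col6a1, -0.14 to 0.19 for Col6a2 and -0.31 to 0.09 for Col6a3. In HFD+MEC1 against ND they ran from -0.10 to 0.11 for Col18a1, -0.27 to 0.12 for Col14a1, -0.02 to 0.16 for Col5a3 and -0.80 to 0.17 for Col15a1. Other settings gave 0.05 for both Col18a1 and Col14a1 with library totals and 0.08 for Col18a1 on each RPKM scale in HFD+MEC1 against ND, and with limma-voom -0.01 for Col1a2 in HFD against ND and 0.01 for Col6a3 in HFD+MEC1 against HFD. The cause was not tested.

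Libraries of equal replicate number showed little correlation of their deviations from group means, between -0.08 and 0.12. With 4 libraries in a group this cannot exclude a pairing, and the labels state none. With a replicate block 2 collagens were called in HFD against ND, Col25a1 and Col5a3 (adjusted p 0.0487), 0 in HFD+MEC1 against HFD and 1 in HFD+MEC1 against ND. Over all genes the block moved the number called in these comparisons, in the same order, from 893 to 896, 4 to 21 and 644 to 716. The block also turned the sign in HFD against ND of Col14a1 (-0.02) and Col1a2 (-0.04).

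Scaling by library totals moved the median log2 fold change of all genes from HFD against ND to 0.12 and that of the collagens from -0.09 to 0.06, so the collagen median changed sign. It also moved the share of called genes that were higher in HFD from 53.2% to 79.5%, and log2(RPKM + 1) moved it to 72.0%. With 3 counts at 0.0590 to 0.0770 CPM, differences among the 13 untested collagens were not detectable at this depth.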

Other observations

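The CPM ratio of Col3a1 to Col4a1, picked after the values were seen, was 0.962 to 1.40 in ND, 0.520 to 1.33 in HFD and 0.446 to 0.800 in HFD+MEC1 libraries. Every HFD+MEC1 library was below every ND library, and only HFD replicate 4, at 0.520, was that low among the vehicle libraries. The RPKM ratio of Col3a1 to Col1a1 was 3.02 to 6.38 over the 12 libraries. It was 4.47 ± 0.193 in HFD libraries (SD, n = 4), where Col3a1 itself ran from 18.3 to 51.5 CPM.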
